A study of Saccharomyces cerevisiae S288C with 32 samples.

Results

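The ATG genes of budding yeast are described here, chosen as every gene of the deposited count table whose symbol is ATG followed by a number. There were 37 of them among 6084 annotated genes, and 37 of 37 passed the filter on low counts on both flowcells. Messenger RNA was measured in Saccharomyces cerevisiae S288C, a standard laboratory strain, grown at room temperature in YPD, a rich medium, and sampled 45 minutes after treatment began. The groups given AZC received L-azetidine-2-carboxylic acid, which resembles proline and is taken into new proteins instead of it, at 2 mg/mL, and the vehicle groups received sterile water. Flowcell 1 held zuo1 with AZC, zuo1 with vehicle, wild type (WT) with AZC and WT with vehicle, and flowcell 2 held not5 with AZC, not5 with vehicle, WT with AZC and WT with vehicle, with 4 libraries in each of the 8 groups. Zuo1 is a J-domain co-chaperone that sits on ribosomes, and Not5 belongs to the Ccr4-Not complex, a deadenylase. The labels give the mutants by these names alone, without the kind of mutation.

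Autophagy encloses cytoplasm, organelles or protein cargo in a double membrane, the autophagosome, and delivers it to the vacuole for breakdown. The Atg1 kinase complex starts the process, the membrane grows through lipid supplied by Atg9 vesicles, Atg2 and a PI3-kinase, and the ubiquitin-like protein Atg8 is coupled to lipid by an enzyme cascade that also uses the Atg12-Atg5-Atg16 complex. Receptors such as Atg19, Atg32 and Atg39 choose the cargo, and vacuolar enzymes such as the lipase Atg15 break it down. In growing yeast in rich medium bulk autophagy is low and a constitutive route, the Cvt pathway, carries aminopeptidase to the vacuole. mRNA levels do not measure autophagic flux.

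The libraries held 22152108 to 31485394 counts on flowcell 1 and 58229383 to 97010130 on flowcell 2. ZUO1 had 0 counts in 7 of the 8 zuo1 libraries, 3 in zuo1 AZC replicate 1 and 14757 to 33003 in WT on flowcell 1. NOT5 had 0 counts in all 8 not5 libraries and 10967 to 17767 in WT on flowcell 2. LEU2, which encodes an enzyme of leucine synthesis, had 1378 to 2311 counts in the not5 libraries and 0 in every WT and zuo1 library, so any effect of LEU2 cannot be told apart from that of not5. Ribosomal RNA took 11.8% and 13.7% of counts in the not5 AZC and vehicle libraries of number 4, 2.81% to 3.54% in the other not5 libraries and 0.55% to 3.87% elsewhere. Levels are given in CPM with TMM scaling, which is a relative scale: a change in level, in RNA per cell or, because poly(A) RNA was selected, in tail length cannot be told apart. The labels call the 4 replicates of each group biological but do not say whether each was a separate culture, so a p-value here measures only the spread between these libraries.

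In AZC-treated WT cells most ATG genes were higher than in vehicle-treated WT cells, and hardly any were lower. On flowcell 1, 28 of the 37 rose and 0 fell by edgeR's quasi-likelihood test at an adjusted p under 0.05, where 33.3% of all genes tested were called higher and 31.3% lower. On flowcell 2, 25 rose and 1 fell, where 30.2% of all genes were called higher and 35.2% lower. The members' median log2 fold change was 0.64 on flowcell 1 and 0.50 on flowcell 2, while the median of all genes was 0.02 and −0.03. Of the 28 on flowcell 1, 14 rose at least 2-fold, as did 8.65% of all genes, and on flowcell 2 it was 9, against 5.28% of all genes. Every AZC library lay above every vehicle library for 26 members on flowcell 1 and 28 on flowcell 2, as for 29.6% and 28.9% of all genes, and no member had the opposite order. Same-numbered WT libraries were taken as paired, and with a replicate block within genotype ATG10, ATG26 and ATG38 were also called higher on flowcell 1 (edgeR adjusted p = 0.0367, 0.0422 and 0.0462) and ATG26, ATG36 and ATG40 on flowcell 2 (edgeR adjusted p = 0.0225, 0.00865 and 0.00121), where that fit called 36.6% and 35.3% of all genes higher.

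ATG41, also named ICY2, whose product binds Atg9, had the largest AZC response on both flowcells. On flowcell 1 it had 199, 238, 225 and 109 CPM in WT AZC libraries, against 5.09, 5.78, 6.44 and 5.75 CPM in WT vehicle libraries, a log2 fold change of 5.06 ± 0.22 (SE; edgeR adjusted p = 4.64e-12). On flowcell 2 it had 85.4, 74.4, 119 and 91.5 CPM with AZC, against 4.66, 4.33, 6.11 and 5.00 CPM with vehicle (log2 4.20 ± 0.26, edgeR adjusted p = 2.22e-09). Every AZC library stood far above every vehicle library, and number 4 was the lowest AZC library on flowcell 1. By size of log2 fold change, ATG41 was gene 10 from the top among all genes tested on each flowcell.

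ATG8, the ubiquitin-like protein that marks the growing membrane, was next. Its level was 33.8, 29.3, 23.6 and 20.8 CPM in WT AZC and 3.30, 2.81, 3.57 and 4.68 CPM in WT vehicle on flowcell 1 (log2 2.91 ± 0.20, edgeR adjusted p = 3.61e-10). On flowcell 2 it was 22.9, 21.5, 28.8 and 21.4 CPM in WT AZC and 4.38, 4.81, 5.67 and 5.79 CPM in WT vehicle (log2 2.20 ± 0.22, edgeR adjusted p = 5.16e-07). The groups were apart on both flowcells, by 7.52-fold and 4.59-fold.

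ATG1, the kinase that starts autophagosome formation, had 82.9, 74.6, 84.1 and 69.8 CPM in WT AZC and 17.8, 15.8, 14.3 and 14.1 CPM in WT vehicle on flowcell 1 (log2 2.33 ± 0.10, edgeR adjusted p = 1.68e-12). On flowcell 2 it had 63.1, 66.5, 75.3 and 60.6 CPM in WT AZC and 20.9, 21.2, 18.9 and 19.6 CPM in WT vehicle (log2 1.72 ± 0.10, edgeR adjusted p = 9.33e-10). Both AZC groups lay wholly above their vehicle groups with little spread. The only called decrease was ATG5 on flowcell 2, with 41.6, 35.1, 38.0 and 41.1 CPM in WT AZC and 40.6, 40.6, 52.8 and 50.4 CPM in WT vehicle (log2 −0.24 ± 0.09, edgeR adjusted p = 0.0229). These ranges overlap, and the call was lost in 4 of the 8 fits that left out 1 of these libraries.

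**Figure D1:**
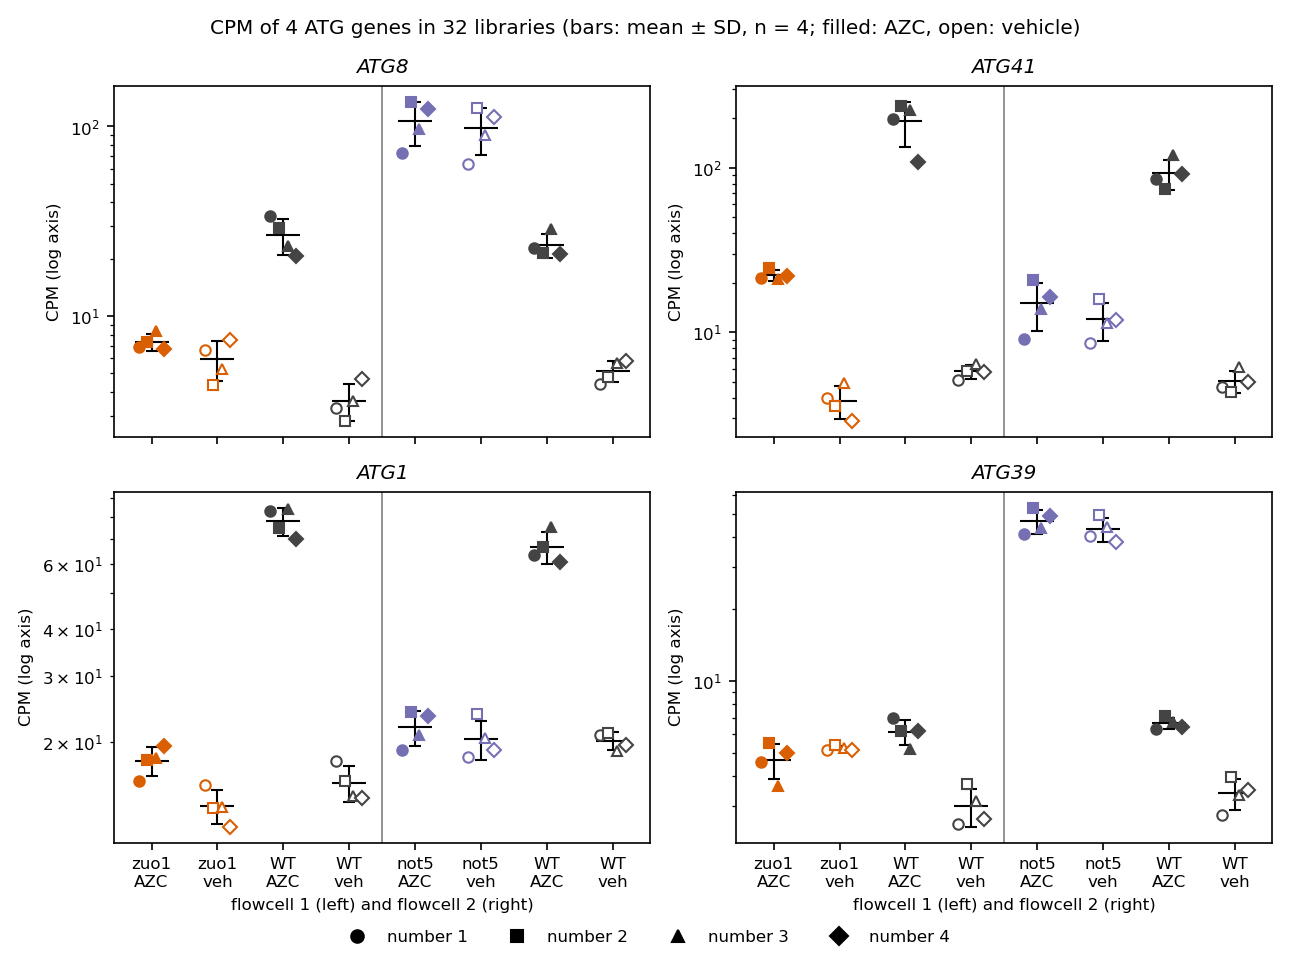
CPM (log axis) of ATG8, ATG41, ATG1 and ATG39 in each of the 32 libraries, by group, with the flowcell 1 groups left of the grey line; symbols give the replicate number and bars the mean ± SD of 4 libraries. ATG41 reached 109 to 238 CPM in WT AZC on flowcell 1 and 21.1 to 24.7 CPM in zuo1 AZC, and ATG8 and ATG39 were highest in not5 with either treatment.

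Within the Atg1 complex, 5 of 6 members rose on flowcell 1 and 4 of 6 on flowcell 2. Beside ATG1 they included ATG29, a scaffold subunit (log2 1.65 ± 0.15 and 1.51 ± 0.21 on flowcells 1 and 2), and ATG13, the regulatory subunit that carries TORC1 phosphorylation sites (0.64 ± 0.08 and 0.46 ± 0.07). ATG17, the scaffold of starvation-induced autophagy, rose by 0.43 ± 0.17 and 0.28 ± 0.10. ATG11, the scaffold of selective autophagy, was called on flowcell 1 alone (0.26 ± 0.09, against −0.08 ± 0.06 on flowcell 2), and ATG31 was called on neither (−0.05 ± 0.15 and 0.02 ± 0.10). ATG29 overlaps the neighbouring gene SET6, and since the libraries did not mark strand its reads cannot be told from those of SET6.

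Of the 10 genes for membrane supply and the PI3-kinase, 9 rose on flowcell 1 and 8 on flowcell 2. ATG2, the lipid transfer protein, rose by 1.28 ± 0.08 and 1.02 ± 0.12, and ATG9, the vesicle protein and lipid scramblase, by 1.104 ± 0.09 and 1.00 ± 0.12. ATG14, which directs the PI3-kinase to autophagy, rose by 1.36 ± 0.14 and 0.74 ± 0.16. Smaller increases were called for the sorting nexin ATG20 (0.87 ± 0.07 and 0.70 ± 0.08), for the PI3P-binding proteins ATG18 (0.53 ± 0.09 and 0.40 ± 0.09) and ATG21 (0.58 ± 0.07 and 0.53 ± 0.09), and for ATG23 (0.27 ± 0.09 and 0.24 ± 0.09), which acts in Atg9 trafficking. ATG27, a membrane protein of the same step, was called on flowcell 1 alone (0.35 ± 0.09, against 0.07 ± 0.05), and ATG38, a PI3-kinase subunit, on neither (0.24 ± 0.13 and 0.06 ± 0.09).

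The 8 conjugation genes were divided in the same way on both flowcells. Beside ATG8, the genes called higher on both were the E1 enzyme ATG7 (1.64 ± 0.08 and 1.45 ± 0.10), the E2 enzyme ATG3 (0.87 ± 0.10 and 0.71 ± 0.14), the protease ATG4, which trims and recycles Atg8 (1.20 ± 0.08 and 0.87 ± 0.10), and ATG16 (1.25 ± 0.22 and 0.83 ± 0.11). ATG12, its E2 enzyme ATG10 and its target ATG5 were called higher on neither flowcell, except ATG10 on flowcell 1 with the replicate block within genotype. With a replicate block shared by all libraries of a flowcell, ATG10 was called in opposite directions, higher on flowcell 1 (edgeR adjusted p = 0.0492) and lower on flowcell 2 (edgeR adjusted p = 0.0456). That fit called 2085 of 5782 genes higher on flowcell 1 and 2172 of 5849 lower on flowcell 2. The shared block also joins libraries that were not taken as paired. Their same-number correlations fell to −0.046 on flowcell 1 and −0.379 on flowcell 2, so the opposite directions are not established. ATG10 stood at 0.48 ± 0.23 on flowcell 1 and −0.26 ± 0.14 on flowcell 2, and ATG12 at 0.22 ± 0.15 and −0.13 ± 0.07.

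Among the 9 members listed here as receptors and factors of selective autophagy, 5 rose on flowcell 1 and 4 on flowcell 2. The Cvt receptor ATG19 rose by 1.31 ± 0.10 and 1.15 ± 0.14, its relative ATG34 by 0.67 ± 0.16 and 0.50 ± 0.17, the nuclear envelope and ER receptor ATG39 by 1.03 ± 0.16 and 0.97 ± 0.12, and ATG33, which acts in mitophagy, by 0.93 ± 0.16 and 0.75 ± 0.13. The ER receptor ATG40 was called on flowcell 1 alone (0.58 ± 0.17, against 0.23 ± 0.11). The mitophagy receptor ATG32 (0.05 ± 0.11 and −0.08 ± 0.07), the pexophagy receptor ATG36 (0.28 ± 0.13 and 0.21 ± 0.13), the sterol glucosyltransferase ATG26 (0.12 ± 0.07 and 0.14 ± 0.08) and the mitochondrial fission factor ATG44 (0.17 ± 0.24 and −0.08 ± 0.10) were called on neither. All 3 genes that act in the vacuole rose on both: the carboxypeptidase ATG42 by 1.37 ± 0.12 and 1.23 ± 0.10, the lipase ATG15 by 0.52 ± 0.16 and 0.48 ± 0.14, and the amino acid effluxer ATG22 by 0.24 ± 0.09 and 0.34 ± 0.09. ATG45, which was placed in none of these role groups, rose by 1.32 ± 0.16 and 0.57 ± 0.10.

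The WT libraries of the flowcells share no sample, and 25 members rose on both, 3 on flowcell 1 alone and 0 on flowcell 2 alone. The 25 are 67.6% of the members, and 27.3% of all genes rose on both. Over the 37 members the log2 fold changes of the flowcells had a Pearson correlation of 0.975, as a description across genes, which are not independent replicates. Between the separate fits of the flowcells the response was larger on flowcell 1 for 34 of the 37 members, as for 57.9% of all genes. In the joint fit of the 16 WT libraries it was larger for 33 members and 50.1% of all genes, so the share of all genes depends on the fit. The difference itself passed the test for 1 member, ATG1 (0.57 ± 0.12, edgeR adjusted p = 0.0317), where 0.499% of all genes were called higher on flowcell 1 and 0.809% lower, and that call was lost in 11 of the 16 fits without 1 library. ATG8 differed by 0.68 ± 0.23 (edgeR adjusted p = 0.122). With a replicate block within each flowcell, 4 members had a larger response on flowcell 1, ATG1, ATG14, ATG41 and ATG45, where that fit called 3.39% of all genes higher and 5.18% lower.

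Among the members, a larger response in WT went with a lower vehicle level per kilobase of coding sequence (Spearman −0.466 on flowcell 1 and −0.386 on flowcell 2, over 37 genes of the same libraries). The vehicle level enters both quantities. The correlation with coding length was −0.027 and 0.117.

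The AZC response was smaller in both mutants. In zuo1, 3 members rose and 0 fell, where 2.25% of all genes were called higher and 0.519% lower, and the members' median log2 fold change was −0.01, against −0.02 for all genes. In not5, 0 of 37 members passed the test, where 0.00% of all genes were called. At an unadjusted p under 0.05 it was also 0 members and 62 of 5849 genes, and DESeq2 and limma-voom also called 0 members. These fits all leave out the pairing of not5 libraries by number, so they are not separate evidence that not5 did not respond. With a replicate block within genotype, ATG41 was called higher in not5, where 75 of 5849 genes were called higher and 1 lower.

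In zuo1 the largest response was again that of ATG41. It had 21.3, 24.7, 21.1 and 21.9 CPM in zuo1 AZC libraries, against 3.99, 3.57, 4.90 and 2.87 CPM in zuo1 vehicle libraries (log2 2.53 ± 0.21, edgeR adjusted p = 3.38e-07). The groups were widely apart, by 5.76-fold. ATG7 had 20.5, 17.6, 18.1 and 19.7 CPM in zuo1 AZC and 14.0, 13.9, 14.8 and 15.1 CPM in zuo1 vehicle (log2 0.39 ± 0.08, edgeR adjusted p = 0.00465), a small rise with no overlap. ATG1 had 15.7, 17.9, 18.2 and 19.5 CPM in zuo1 AZC and 15.3, 13.3, 13.4 and 11.9 CPM in zuo1 vehicle (log2 0.40 ± 0.10, edgeR adjusted p = 0.0384). Those groups do not overlap but come within 1 CPM of each other, and the ATG1 call was lost in 4 of the 8 fits without 1 of these libraries. A fit on the 8 zuo1 libraries alone kept the call of ATG41 and lost those of ATG1 (adjusted p = 0.118) and ATG7 (adjusted p = 0.0531). ATG8 did not pass in zuo1, at 6.89, 7.33, 8.35 and 6.74 CPM with AZC and 6.68, 4.35, 5.30 and 7.52 CPM with vehicle (log2 0.30 ± 0.19, edgeR adjusted p = 0.579), and those groups overlap.

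In not5 the AZC and vehicle libraries overlapped for all 37 members, as for nearly all genes: 0.513% of all genes lay higher in every AZC library and 0.239% lower. ATG8 had 72.3, 135, 97.5 and 123 CPM in not5 AZC and 63.8, 126, 90.6 and 112 CPM in not5 vehicle (log2 0.12 ± 0.20, edgeR adjusted p = 0.999). ATG41 had 9.11, 20.6, 13.9 and 16.5 CPM in not5 AZC and 8.54, 15.99, 11.4 and 11.8 CPM in not5 vehicle, and ATG1 19.1, 24.1, 20.9 and 23.5 CPM and 18.2, 23.7, 20.5 and 19.0 CPM (log2 0.10 ± 0.09, edgeR adjusted p = 0.999). Libraries with the same number moved together in not5, number 1 low and number 2 high with either treatment. Within each number the AZC library was the higher one for ATG8, ATG41 and ATG1 in 4 of 4 pairs. On log2 of CPM plus 1 the differences were 0.10 to 0.18 for ATG8 and 0.08 to 0.44 for ATG41. This order was not particular to those genes: ATG3, ATG4 and ATG9 also had it in 4 of 4 pairs, and ATG11 and ATG12 in 2 of 4. Its share over all genes was not taken. With a replicate block within each genotype, ATG41 passed in not5 (log2 0.31 ± 0.06, edgeR adjusted p = 0.0275), the only member to do so, where that fit called 1.28% of all genes higher. Of the 37 log2 fold changes in not5, 35 were above 0, with a median of 0.09, as were 50.1% of those of all genes.

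**Figure D2:**
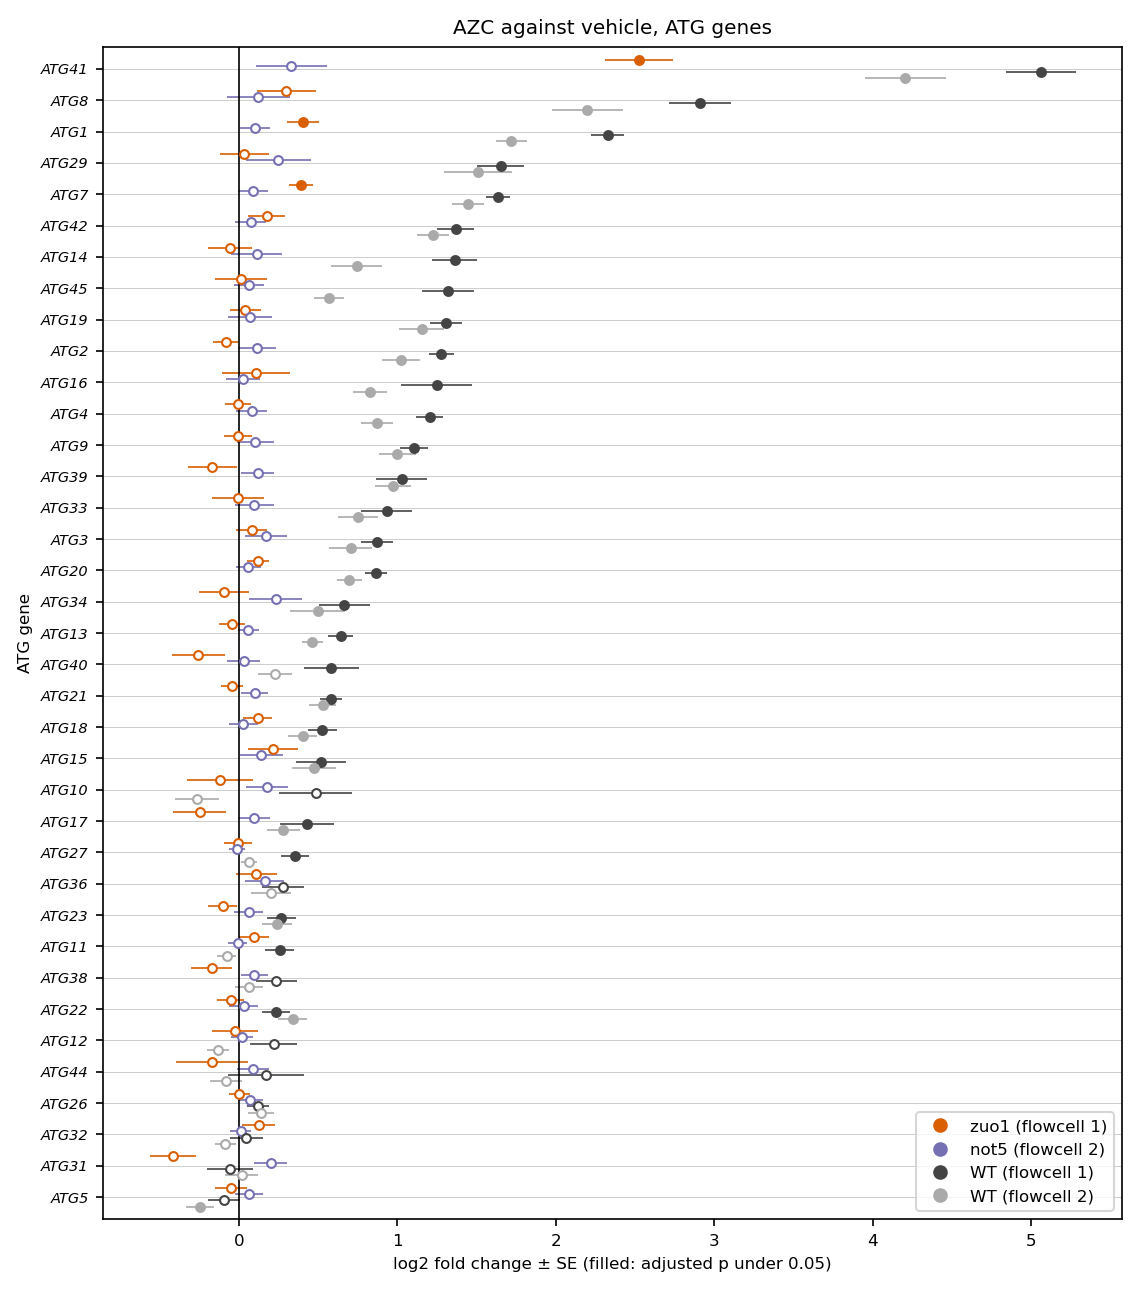
log2 fold change of AZC over vehicle (± SE) for each of the 37 ATG genes in zuo1, not5 and WT on each flowcell, ordered by the WT response on flowcell 1; filled points passed an adjusted p under 0.05. WT points run up to 5.06, whereas the zuo1 points other than ATG41 lie between −0.42 and 0.40 and the not5 points between −0.01 and 0.33.

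The difference of responses between mutant and WT was tested directly in the same fits. The zuo1 response was lower than the WT response for 25 members and higher for 0 (0.00%), where 26.7% of all genes were called lower and 23.4% higher, and the members' median difference was −0.74, against −0.05 for all genes. The largest differences were ATG8 (−2.61 ± 0.27 log2, edgeR adjusted p = 2.73e-07), ATG41 (−2.53 ± 0.30, edgeR adjusted p = 2.17e-06) and ATG1 (−1.92 ± 0.14, edgeR adjusted p = 4.94e-09). Further differences past the test were those of ATG29 (−1.62 ± 0.22), ATG14 (−1.42 ± 0.20), ATG2 (−1.36 ± 0.11), ATG45 (−1.31 ± 0.23), ATG19 (−1.27 ± 0.14), ATG7 (−1.24 ± 0.11) and ATG4 (−1.21 ± 0.12).

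The not5 response was lower than the WT response for 20 members and higher for 0, where 22.7% of all genes were called lower and 26.5% higher, with a median difference of −0.41, against 0.04 for all genes. ATG41 differed most (−3.87 ± 0.33, edgeR adjusted p = 3.18e-07), then ATG8 (−2.07 ± 0.30, edgeR adjusted p = 4.74e-05) and ATG1 (−1.62 ± 0.13, edgeR adjusted p = 2.43e-07). ATG7 (−1.36 ± 0.14), ATG29 (−1.26 ± 0.30), ATG42 (−1.15 ± 0.14), ATG19 (−1.08 ± 0.20), ATG2 (−0.91 ± 0.17) and ATG9 (−0.90 ± 0.17) followed. The 12 members that passed neither test of a difference were ATG5, ATG10, ATG11, ATG12, ATG15, ATG22, ATG26, ATG31, ATG32, ATG36, ATG38 and ATG44, of which ATG15 and ATG22 rose with AZC in WT on both flowcells and ATG11 on flowcell 1. With the replicate block within genotype, by which not5 and WT libraries of flowcell 2 were each taken as paired, the not5 response was lower for 25 members and higher for 2, where that fit called 29.5% of all genes lower and 35.5% higher. The 2 higher were ATG5 (0.30, edgeR adjusted p = 0.0154) and ATG10 (0.45, edgeR adjusted p = 0.0237). The 5 added as lower were ATG15 (−0.33), ATG22 (−0.31), ATG34 (−0.27), ATG40 (−0.20) and ATG23 (−0.19). Of the 12, ATG5, ATG10, ATG15 and ATG22 thus passed with the block. Other settings without a block also moved some of the 12. For not5 minus WT, ATG22 was lower by DESeq2 (adjusted p = 0.0339) and ATG5 higher with library totals (edgeR adjusted p = 0.0322). For zuo1 minus WT, ATG22 and ATG38 were lower with library totals (edgeR adjusted p = 0.0276 and 0.0439). ATG10 was lower there with all 32 libraries in 1 fit (edgeR adjusted p = 0.0491).

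With vehicle alone, zuo1 and not5 each differed from WT in many ATG genes. In not5, 27 members were higher and 5 lower than in WT, where 41.2% of all genes were called higher and 40.9% lower, and the members' median log2 fold change was 0.64, against 0.00318 for all genes. In zuo1, 11 were higher and 9 lower, where 30.1% of all genes were called higher and 29.1% lower, with a median of 0.08, against 0.01. Scaling by library totals in place of TMM moved the median of all genes to 0.53 in not5 and 0.25 in zuo1. The split then became 31 higher and 3 lower in not5, where 62.5% and 19.5% of all genes were so called, and 18 higher and 3 lower in zuo1, where it was 50.0% and 13.6%, so the count of lower calls in zuo1 depends on the scaling. Without both not5 libraries of number 4, which held the most ribosomal RNA, the not5 split was again 27 higher and 5 lower. That fit called 2457 of 5851 genes higher and 2194 lower.

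ATG8 and ATG39 differed most between not5 and WT. ATG8 had 63.8, 126, 90.6 and 112 CPM in not5 vehicle and 4.38, 4.81, 5.67 and 5.79 CPM in WT vehicle, a 19.0-fold difference (log2 4.25 ± 0.24, edgeR adjusted p = 1.62e-10). ATG39 had 40.3, 49.7, 44.1 and 38.3 CPM in not5 vehicle and 2.74, 3.98, 3.32 and 3.48 CPM in WT vehicle, a 12.7-fold difference (log2 3.67 ± 0.12, edgeR adjusted p = 6.51e-13). For both genes every not5 library lay above every WT library by a wide margin, and not5 with vehicle also stood above WT with AZC. ATG4 had 68.0, 95.9, 82.2 and 84.6 CPM in not5 and 23.8, 24.0, 22.9 and 23.3 CPM in WT (log2 1.81 ± 0.10, edgeR adjusted p = 1.73e-10). The conjugation genes higher in not5 were ATG8, its protease ATG4, its E2 enzyme ATG3 (1.58 ± 0.14), its E1 enzyme ATG7 (1.19 ± 0.10) and the E2 enzyme ATG10 (0.77 ± 0.13).

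The genes lower in not5 included ATG12 and ATG5, which form the conjugate that assists Atg8 lipidation. ATG12 had 11.2, 9.69, 9.66 and 10.2 CPM in not5 vehicle and 20.6, 18.4, 19.5 and 19.0 CPM in WT vehicle (log2 −0.93 ± 0.07, edgeR adjusted p = 3.72e-09). ATG27 had 73.4, 68.1, 70.3 and 68.7 CPM in not5 and 131, 128, 144 and 133 CPM in WT (log2 −0.93 ± 0.05, edgeR adjusted p = 8.64e-11). ATG13 had 45.8, 50.2, 43.7 and 47.3 CPM in not5 and 81.8, 79.3, 76.0 and 74.2 CPM in WT (log2 −0.74 ± 0.07, edgeR adjusted p = 3.5e-08). None of these groups overlaps. ATG5 (−0.62 ± 0.09) and ATG26 (−0.35 ± 0.08) complete the 5, and with library totals those last calls were lost.

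The listed receptors and factors of selective autophagy were mostly higher in not5, 8 of 9. Beside ATG39 they were ATG33 (1.32 ± 0.13), ATG40 (1.18 ± 0.11), ATG34 (0.96 ± 0.17), ATG32 (0.85 ± 0.07), ATG36 (0.83 ± 0.13), ATG19 (0.55 ± 0.14) and ATG44 (0.39 ± 0.10). All 3 vacuolar genes were higher, ATG42 by 1.42 ± 0.10, ATG22 by 1.11 ± 0.09 and ATG15 by 0.36 ± 0.14. In membrane supply, ATG21 (1.33 ± 0.09), ATG41 (1.25 ± 0.24) and ATG20 (1.09 ± 0.08) rose most. ATG1 did not pass (0.01 ± 0.09), nor did ATG2, ATG14, ATG16 and ATG31.

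In zuo1 with vehicle the largest increases were in ATG44, ATG10 and ATG12. ATG44 had 13.9, 23.5, 13.6 and 13.4 CPM in zuo1 and 7.13, 6.01, 6.52 and 6.58 CPM in WT (log2 1.29 ± 0.24, edgeR adjusted p = 0.000171), with number 2 the highest zuo1 library and no overlap. ATG10 had 3.42, 4.00, 3.12 and 4.30 CPM in zuo1 and 1.59, 1.91, 1.89 and 1.36 CPM in WT (log2 1.12 ± 0.22, edgeR adjusted p = 0.000337). ATG12 had 33.0, 30.3, 24.5 and 28.3 CPM in zuo1 and 17.4, 14.7, 14.5 and 14.6 CPM in WT (log2 0.92 ± 0.15, edgeR adjusted p = 4.12e-05). The zuo1 libraries stood above the WT libraries for each. Other increases were those of ATG40 (0.91 ± 0.17), ATG5 (0.83 ± 0.10), ATG39 (0.80 ± 0.16), ATG8 (0.74 ± 0.20), ATG14 (0.65 ± 0.14), ATG16 (0.62 ± 0.23), ATG38 (0.55 ± 0.13) and ATG22 (0.40 ± 0.09). Of the 8 conjugation genes, 5 were thus higher in zuo1, and ATG3, ATG4 and ATG7 did not pass (−0.03 ± 0.10, −0.09 ± 0.08 and 0.08 ± 0.08).

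The largest decrease in zuo1 was in ATG18, with 26.1, 24.9, 25.4 and 26.6 CPM in zuo1 and 36.97, 40.8, 43.4 and 44.5 CPM in WT (log2 −0.68 ± 0.09, edgeR adjusted p = 7.09e-06). ATG29 had 2.48, 2.60, 3.08 and 3.37 CPM in zuo1 and 4.01, 3.90, 4.19 and 4.73 CPM in WT (log2 −0.54 ± 0.16, edgeR adjusted p = 0.00608). ATG41 had 3.99, 3.57, 4.90 and 2.87 CPM in zuo1 and 5.09, 5.78, 6.44 and 5.75 CPM in WT (log2 −0.58 ± 0.23, edgeR adjusted p = 0.0378). These groups do not overlap, but the ATG41 call was lost in 6 of the 8 fits without 1 library, and those of ATG29 and ATG41 with library totals (adjusted p = 0.141 and 0.236). Other members called lower were ATG13 (−0.53 ± 0.08), ATG26 (−0.47 ± 0.07), ATG32 (−0.43 ± 0.11), ATG15 (−0.40 ± 0.16), ATG2 (−0.21 ± 0.08) and ATG27 (−0.21 ± 0.09). With library totals the calls of ATG32, ATG15, ATG2 and ATG27 were also lost (edgeR adjusted p = 0.176, 0.409, 0.728 and 0.761). The sign turned there for ATG2 (0.04) and ATG27 (0.03). For ATG15 and ATG2 the groups overlap. Same-numbered zuo1 and WT vehicle libraries were taken as paired, and with a replicate block ATG33 was also lower (−0.27, edgeR adjusted p = 0.0272), where that fit called 31.6% of all genes lower.

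**Figure D3:**
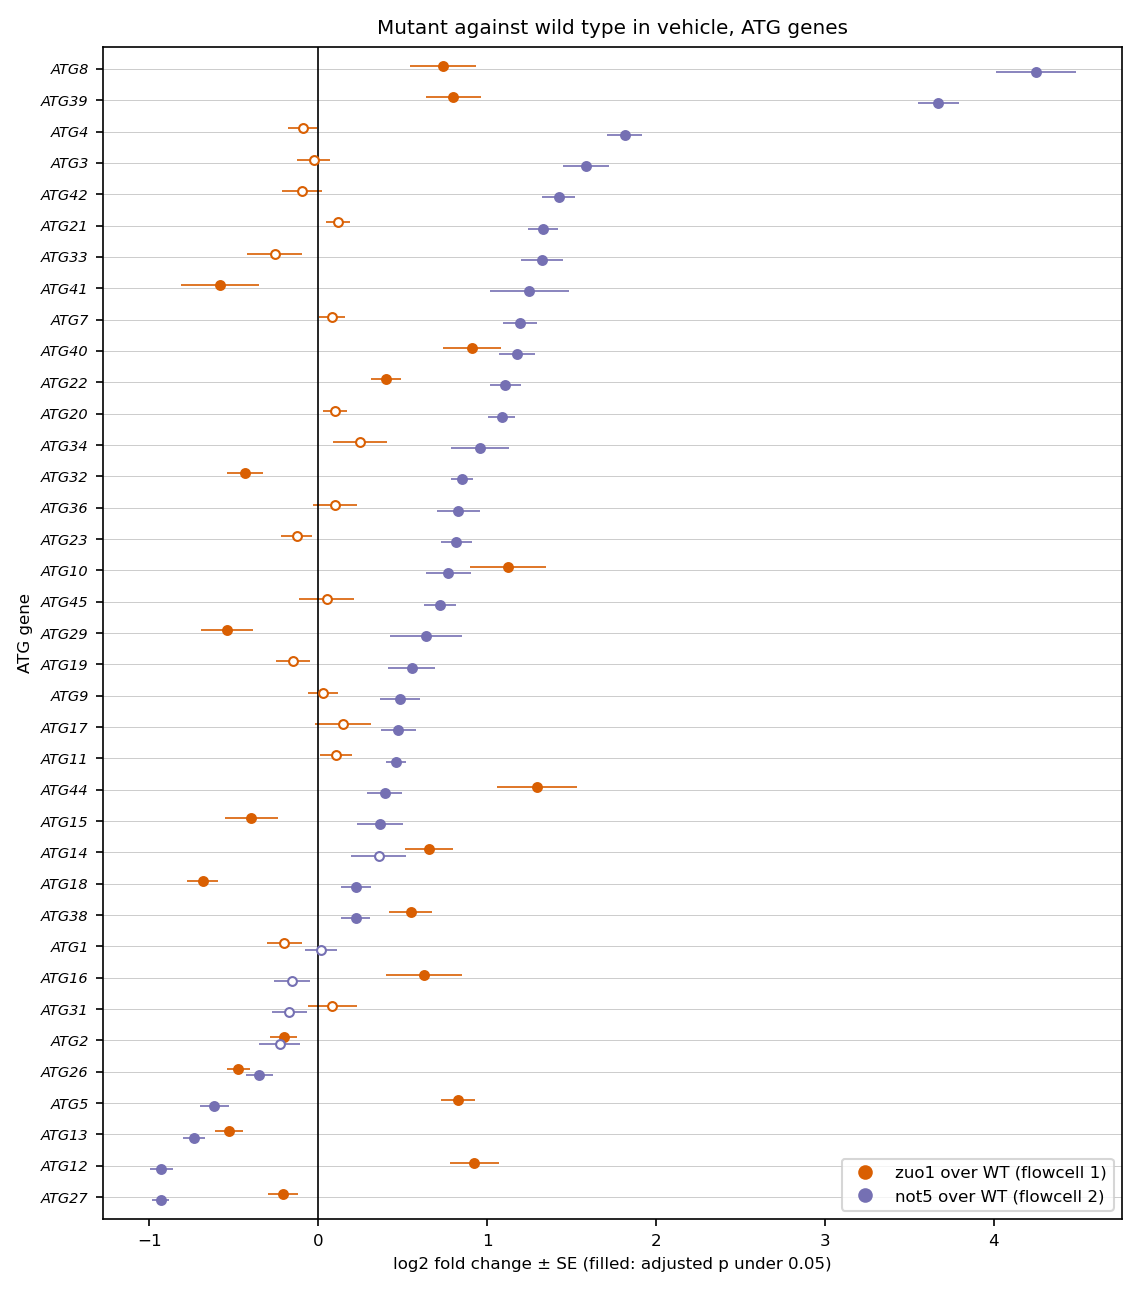
log2 fold change of mutant over WT with vehicle (± SE) for each of the 37 ATG genes, in zuo1 (flowcell 1) and not5 (flowcell 2), ordered by the not5 value; filled points passed an adjusted p under 0.05. ATG8 (4.25) and ATG39 (3.67) stand apart in not5, and ATG5 and ATG12 lie to the right of 0 in zuo1 and to the left in not5.

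The vehicle differences of the mutants share no library, and over the 37 members they had a Pearson correlation of 0.174 and a Spearman correlation of 0.090, as a description. Of the 11 members higher in zuo1, 7 were higher in not5 and 2, ATG5 and ATG12, were lower. Of the 9 lower in zuo1, 5 were higher in not5 and 3, ATG13, ATG26 and ATG27, were lower. Of all 37 members 27 were higher and 5 lower in not5, where 41.2% and 40.9% of all genes were so called. These cross-counts and correlations were not taken over all genes, so they do not show whether the ATG genes stand apart.

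With AZC, zuo1 held lower levels of most ATG genes than WT: 27 were lower and 4 higher, where 35.4% of all genes were called lower and 34.0% higher, and the median was −0.59, against −0.01 for all genes. ATG41 had 21.3, 24.7, 21.1 and 21.9 CPM in zuo1 AZC and 199, 238, 225 and 109 CPM in WT AZC (log2 −3.12 ± 0.20, edgeR adjusted p = 4.28e-10). ATG29 had 2.46, 2.90, 3.11 and 3.35 CPM in zuo1 AZC and 16.3, 12.8, 11.6 and 12.2 CPM in WT AZC (log2 −2.16 ± 0.15, edgeR adjusted p = 6.91e-10), and ATG1 differed by −2.13 ± 0.10 (edgeR adjusted p = 6.37e-12). The groups were apart in each case. The 4 higher in zuo1 were ATG44, at 15.1, 19.5, 10.2 and 12.5 CPM against 6.05, 9.34, 4.98 and 9.21 CPM in WT (log2 0.95 ± 0.23, edgeR adjusted p = 0.00159), ATG5, ATG12 and ATG10. ATG5 had 63.7, 67.4, 50.1 and 57.3 CPM in zuo1 AZC and 29.1, 39.2, 33.1 and 29.4 CPM in WT AZC (log2 0.87 ± 0.10, edgeR adjusted p = 5.9e-07). ATG12 had 28.4, 34.4, 20.9 and 30.4 CPM in zuo1 AZC and 21.4, 19.1, 14.5 and 16.2 CPM in WT AZC (log2 0.68 ± 0.15, edgeR adjusted p = 0.000463), with 1 zuo1 library inside the WT range, and ATG10 differed by 0.52 ± 0.22. The ATG10 groups overlap, and its call was lost by limma-voom (adjusted p = 0.0509) and with only the 8 libraries compared (edgeR adjusted p = 0.0671). With library totals the lower calls of ATG16, ATG17, ATG32, ATG34 and ATG39 were lost, and ATG22 and ATG38 were called higher. That fit called 2575 of 5782 genes higher and 1458 lower.

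With AZC, not5 had 20 members higher and 12 lower than WT, where 40.7% of all genes were called higher and 38.7% lower, with a median of 0.25, against 0.02. With library totals the split was 25 higher and 7 lower, where 64.6% and 15.9% of all genes were so called, and the median of all genes moved to 0.55. Without both not5 libraries of number 4 it was 17 higher and 12 lower, where 2250 of 5851 genes were called higher and 2209 lower. ATG39 had 41.1, 53.2, 43.9 and 49.0 CPM in not5 AZC and 6.28, 7.10, 6.74 and 6.42 CPM in WT AZC (log2 2.82 ± 0.11, edgeR adjusted p = 4.49e-12). ATG8 differed by 2.17 ± 0.21 (edgeR adjusted p = 1.08e-07). ATG10 had 4.94, 4.25, 5.69 and 5.13 CPM in not5 AZC and 1.89, 1.98, 2.03 and 2.75 CPM in WT AZC (log2 1.21 ± 0.14, edgeR adjusted p = 5.15e-07). All 3 genes were higher in every not5 library. Lower in not5 were ATG41 (−2.62 ± 0.23, edgeR adjusted p = 3.64e-08), ATG1 (−1.60 ± 0.10, edgeR adjusted p = 3.13e-10) and ATG13, with 44.5, 53.8, 44.5 and 52.1 CPM in not5 AZC and 110, 107, 111 and 102 CPM in WT AZC (log2 −1.14 ± 0.07, edgeR adjusted p = 2.32e-10).

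**Figure D4:**
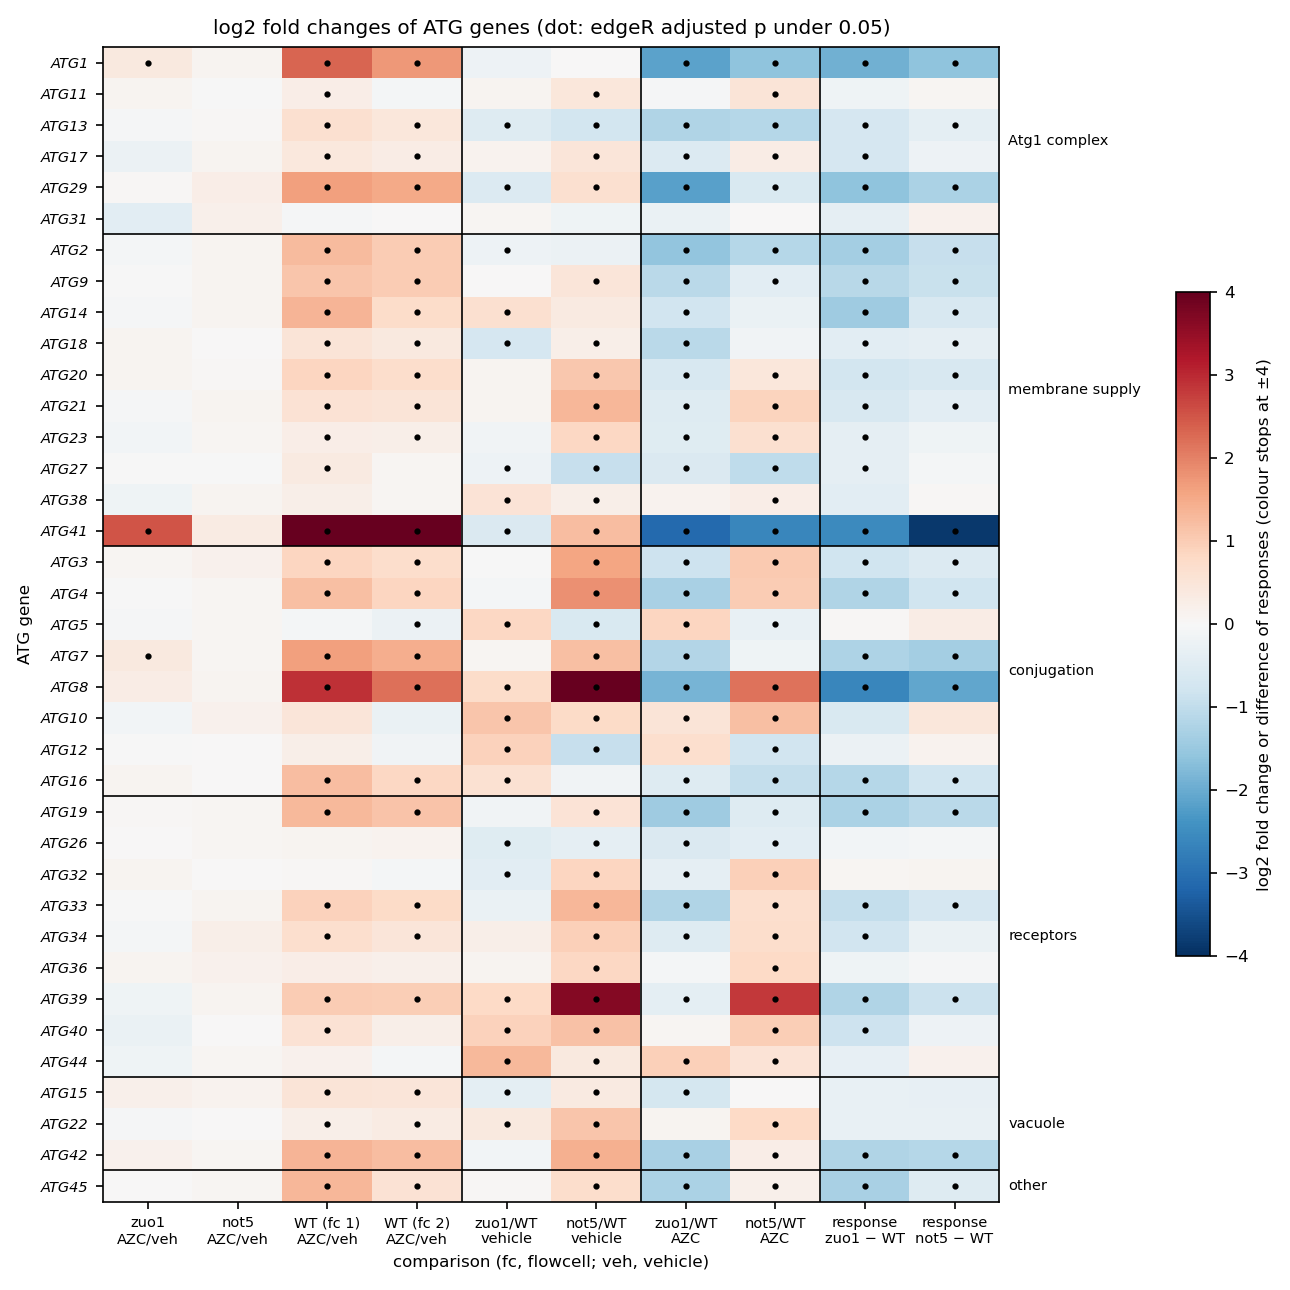
log2 fold changes (colour) of the 37 ATG genes, grouped by role, in 10 comparisons; fc is flowcell, the last pair of columns holds the mutant response minus the WT response, and a black dot marks an adjusted p under 0.05. WT AZC columns are red for most genes (28 and 25 called higher), the not5 AZC column has 0 dots, and the last columns are blue wherever they have a dot.

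Levels can be set between genes only per kilobase of coding sequence, and on that scale the leading ATG gene changed with the group. In zuo1 ATG27 led with either treatment, at 121 ± 12.4 CPM per kilobase with AZC and 121 ± 11.9 with vehicle (SD, n = 4). In not5 ATG8 led, at 302 ± 78.3 CPM per kilobase with AZC and 277 ± 76.4 with vehicle, ahead of ATG42 at 131 ± 11.2 and 125 ± 12.6. In WT ATG41 led with AZC, at 469 ± 142 CPM per kilobase on flowcell 1 and 225 ± 46.1 on flowcell 2, and ATG27 with vehicle, at 140 ± 2.78 and 164 ± 8.77. Second to ATG27 in WT vehicle was ATG5, at 39.4 ± 2.68 and 52.1 ± 7.27, followed by ATG19 (33.4 ± 3.74 and 43.3 ± 0.987) and ATG42 (32.2 ± 3.97 and 46.5 ± 2.60), which stood in opposite order on the flowcells. The lowest in WT vehicle was ATG39, at 2.50 ± 0.458 and 2.82 ± 0.426 CPM per kilobase. Summed over the 37 members, the median library held 944 CPM in zuo1 AZC, 915 in zuo1 vehicle, 1753 in WT AZC and 932 in WT vehicle on flowcell 1. On flowcell 2 it held 1777 CPM in not5 AZC, 1674 in not5 vehicle, 1665 in WT AZC and 1102 in WT vehicle.

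Short stretches upstream of these genes were read from the RefSeq R64 genome to show which known motifs lie before the members that moved most. The 500 bases upstream of each start codon were searched on both strands for the stress response element (AGGGG, bound by Msn2 and Msn4), URS1 (GCCGCCGA, bound by Ume6, a repressor of ATG8), the Gcn4 site (TGACTC), the GATA site (GATAAG), the proteasome element PACE (GGTGGCAAA) and a heat shock element (TTC, GAA and TTC with any 2 bases between each, bound by Hsf1). The stress response element lay before 17 of 37 members (45.9%) and 34.1% of 5959 genes, URS1 before 1 (2.7%, ATG8) and 1.39%, the Gcn4 site before 8 (21.6%) and 12.7%, and the GATA site before 14 (37.8%) and 22.7%. PACE and the heat shock element lay before 0 members and before 1.64% and 1.48% of genes. None of the 6 motifs was found before ATG41, ATG1 or ATG7. A match is a run of letters in this window and no evidence of binding. The windows of 30 bases below are some of those of ATG8 and ATG39, the genes that differed most in not5, and of ATG29 and ATG42, which rose at least 2-fold with AZC in WT. Not every match is printed. Gcn4 sites also lay before ATG8, ATG29 and ATG42, GATA sites before ATG8, ATG29 and ATG39, and another stress response element before ATG42. The windows run 5′ to 3′ on the gene's coding strand, with the named motif, or its reverse complement, in capitals, and no capitals of one overlap those of another. A match other than the named one stays in lower case within a window.
ATG8 URS1 (chrII:80848-80877, minus strand): gccggttatttTCGGCGGCggcaaaaatat
ATG8 stress response element (chrII:80805-80834, minus strand): ggaaatacaaaaAGGGGaaccattaaaggt
ATG8 stress response element (chrII:80782-80811, minus strand): taaaggttgaggAGGGGattgataagagaa
ATG39 stress response element (chrXII:759132-759161, minus strand): aaccctccggacCCCCTaccccggtgtgcc
ATG39 stress response element (chrXII:759086-759115, minus strand): attttgcggtaaCCCCTttgcgcgacagct
ATG29 stress response element (chrXVI:237252-237281, plus strand): aggtgaaaataaAGGGGtgttagtgaatac
ATG42 stress response element (chrII:515566-515595, plus strand): tcgaaaaatgtcAGGGGacaggggttatat

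Genes known to act with the ATG genes were read from 5 lists, whose counts stand beside the shares of all genes called: with vehicle, 30.1% higher and 29.1% lower in zuo1 than in WT and 41.2% higher and 40.9% lower in not5, and with AZC in WT 33.3% higher and 31.3% lower on flowcell 1 and 30.2% and 35.2% on flowcell 2. Of 13 transcription regulators, 10 rose and 2 fell with AZC in WT on both flowcells. GIS1, a repressor of several ATG genes, rose by 1.85 ± 0.09 on flowcell 1 and 1.53 ± 0.08 on flowcell 2, and MSN4, an activator of stress genes, by 0.94 ± 0.09 and 0.63 ± 0.06. GCN4, the activator of amino acid synthesis genes, fell by 0.83 and 0.60, and RPH1, a repressor related to GIS1, by 0.58 and 0.49. In zuo1 and not5, 0 of the 13 changed with AZC. Of all genes, 2.25% were called higher and 0.519% lower with AZC in zuo1, and 0% either way in not5. A count of 0 with AZC in a mutant, here and in the lists below, is thus near the share of all genes. In not5 with vehicle, 6 were higher and 3 lower than in WT, a share near that of all genes for the higher and under it for the lower. Members of the same Rpd3 deacetylase complex lay on both sides: PHO23 (0.92 ± 0.05) and the deacetylase RPD3 (0.67 ± 0.04) were higher, and SIN3 (−0.66 ± 0.07) and UME6 (−0.75 ± 0.06), which recruits the complex, were lower. The repressors GIS1 (0.73 ± 0.08) and RPH1 (0.43 ± 0.08) were also higher. The activator MSN4 and GAT1 likewise had higher mean levels in not5 vehicle (61.6 and 39.0 CPM) than in WT vehicle of flowcell 2 (50.3 and 29.2 CPM). In zuo1 with vehicle, 2 were higher and 3 lower, including RPD3 (0.67 ± 0.05) and UME6 (−0.41 ± 0.09).

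Of 20 genes of TORC1, the complex that represses autophagy, its regulators and related kinases, 1 rose with AZC in zuo1 and 0 in not5. In WT 10 rose and 4 fell on flowcell 1, and 8 rose and 4 fell on flowcell 2. The TORC1 subunit LST8 rose by 1.72 ± 0.12 in zuo1 and by 3.85 ± 0.13 and 3.19 ± 0.13 in WT. In not5 with vehicle 7 were higher and 7 lower than in WT, both shares under those of all genes, and SCH9, a kinase downstream of TORC1, was among the lower (−1.22 ± 0.10).

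Of 11 partners without an ATG symbol, 0 changed with AZC in zuo1 or not5, and 8 rose and 1 fell in WT on each flowcell. They included the sorting nexin SNX4, the partner of Atg20 (1.61 ± 0.06 and 1.17 ± 0.08). In not5 with vehicle 9 of the 11 were higher and 2 lower, including the PI3-kinase subunit VPS30 (1.20 ± 0.06) and the fission adaptor FIS1 (1.43 ± 0.10). Of 11 vacuolar proteases and Cvt cargo genes, 0 changed with AZC in zuo1 or not5. In WT 6 rose on flowcell 1 and 8 on flowcell 2 with 0 lower, led by the protease PRB1 (1.55 ± 0.13 and 1.45 ± 0.13) and the aminopeptidase APE1 (1.29 ± 0.17 and 1.15 ± 0.11), the main Cvt cargo. In zuo1 with vehicle 1 was higher and 4 lower, with the phosphatase PHO8 at −1.31 ± 0.07. Of 14 genes for fusion with the vacuole, 0 changed with AZC in zuo1 or not5, and 6 rose and 2 fell in WT on flowcell 1 (5 and 2 on flowcell 2), with the SNARE VAM3 at −0.75 ± 0.12 and −0.63 ± 0.06. In not5 with vehicle 8 were higher, a share above that of all genes, and 5 lower, a share under it, and the SNARE VTI1 differed most (2.42 ± 0.09).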

How the data were processed

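Poly(A) RNA was made into 32 libraries whose kit, per the labels' protocols, keeps no strand. Per the submitters' processing notes, the authors used FastQC 0.12.1 and Salmon 1.10.2 with R64, and they deposited expected counts per gene. Of the deposited estimated counts 79.1% were not whole, and they were rounded. Of 6085 records 6084 matched the RefSeq R64 annotation, and the other held at most 0.0179% of a library.

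The robust quasi-likelihood test of edgeR 4.0.16 (TMM, filterByExpr by group, R 4.3.3) was run on each flowcell's 16 libraries, or the 16 WT libraries, with group as the only term, over 5782, 5849 and 5808 genes, with Benjamini-Hochberg adjustment at 0.05. The script was tested on simulated data. Alternatives used DESeq2 1.42.0, limma 3.58.1 (voom), other scalings and filters, other sets of libraries, a replicate block and leaving out each library. Members, lists and named genes (the 3 largest called changes each way in a comparison, and ATG8 and ATG1 with AZC, and from other lists up to 2 each way) were chosen with earlier results of these data known. For the transcription regulators in not5 with vehicle, more than 2 higher genes were named. Counting error is only part of the spread, and reads had no molecular identifiers.

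Whether numbers pair libraries was checked over 5169 genes by the correlation of deviations from group means. Same-numbered AZC and vehicle libraries correlated at 0.524 to 0.944 in not5, 0.258 to 0.541 in WT on flowcell 1 and 0.285 to 0.573 in WT on flowcell 2, so they were taken as paired on the data alone, and at 0.035 to 0.674 in zuo1, which were not. Differently numbered libraries reached 0.398 in not5, 0.469 in WT on flowcell 1, 0.154 in WT on flowcell 2 and 0.309 in zuo1. In WT on flowcell 1 numbers 1 and 2, at 0.258 and 0.268, lay below that, so the pairing there is less clear. Mutant and WT of the same number correlated at 0.273 to 0.472 for zuo1 with vehicle, and below 0.1 for at least 1 number in the other 3 comparisons.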

Additional observations from a re-analysis of the deposited data

Results flagged for a closer look

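In 4 of the 112 member and group combinations tested, 1 of the 4 libraries stood far from the others, and chance alone marks about 1 in 20. ATG44 had 23.5 CPM in zuo1 vehicle replicate 2, against 13.4 to 13.9 CPM in the other 3. ATG12 had 17.4 CPM in WT vehicle replicate 1 of flowcell 1, against 14.5 to 14.7 CPM. ATG10 had 2.75 CPM in WT AZC replicate 4 of flowcell 2, against 1.89 to 2.03 CPM. ATG4 had 46.5 CPM in WT AZC replicate 3 of flowcell 2, against 41.6 to 42.1 CPM.

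The AZC response differed between genotypes by the test of the difference itself (edgeR, adjusted p in the report). For zuo1 minus WT the differences of log2 fold changes were −2.61 in ATG8, −2.53 in ATG41 and −1.92 in ATG1. For not5 minus WT they were −3.87 in ATG41, −2.07 in ATG8 and −1.62 in ATG1. Between the flowcells, the WT response of ATG1 differed by 0.57.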

How the results depend on the processing

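Counts of members called were recomputed under other scalings, filters, tools, fits and sets of libraries, 1 choice at a time. For AZC in zuo1 the count was 1 with the 8 libraries compared alone, in place of 3, and for AZC in not5 it was 1, in place of 0, with a replicate block within genotype. Over all genes these fits called 126 of 5751, in place of 160 of 5782, and 76 of 5849, in place of 0. For zuo1 against WT with vehicle it was 13 with a mean of at least 10 CPM, which tested 30 members, in place of 20. That fit called 3137 of 5115 genes, in place of 3428 of 5782. For the WT response between flowcells it was 4 by DESeq2, 2 with a replicate block, 4 with the block within flowcell and 2 with all 32 libraries, in place of 1. Over all genes these fits called 356, 172 and 498 of 5808 and 104 of 5854, in place of 76 of 5808. Leaving out 1 library gave 2 to 3 (AZC in zuo1), 0 to 0 (not5), 25 to 28 and 22 to 26 (WT on flowcells 1 and 2), 16 to 19 and 30 to 33 (zuo1 and not5 against WT with vehicle), 28 to 30 and 30 to 32 (with AZC), 22 to 25 and 17 to 25 (response of zuo1 and not5 minus WT) and 0 to 8 (WT between flowcells). Without both not5 libraries of number 4, the counts were 0 with AZC in not5, 32 and 29 for not5 against WT with vehicle and AZC, and 20 for the difference of responses. Over all 5851 genes tested the same fit called 0, 4651, 4459 and 2497.

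For single genes, 37 of 45 named results kept their direction and side of the threshold under every setting run. The sign turned for ATG8 with AZC in not5, which never passed, at −0.03 without not5 vehicle replicate 1 and −0.0058 without not5 AZC replicate 2, in a range of −0.035 to 0.27 over the fits without 1 library. Calls were lost in at least 1 setting for 6 results and gained for 1, ATG8 between flowcells. A replicate block, shared or within genotype or flowcell, changed the call of 0 of the 45. Over all members, comparisons and block fits it added 31 calls and removed 1, ATG45 in not5 against WT with AZC, and those in comparisons taken as paired are given in the report. The block also raised calls over all genes. Within genotype they went from 3737 to 4084 of 5782 for AZC in WT on flowcell 1. For the response of not5 minus WT they went from 2879 to 3801 of 5849. The cause was not tested.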
